A study of Mus musculus with 4 samples.

Results

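Accessible chromatin was compared between 2 populations of EpRas cells, mouse mammary gland epithelial cells of the EpH4 line that carry an active H-Ras. Both were treated with TGF-β at 1 ng/ml for 4 days. One had been transfected with a control siRNA (siControl), the other with siEtv4/5 set 2, a pair of siRNAs against Etv4 and Etv5. Regions were found by FAIRE-seq, which isolates nucleosome-poor DNA that stays in the aqueous phase after formaldehyde fixation and phenol extraction. There was 1 list of FAIRE-positive regions for each group. The series also holds siControl without TGF-β (untreated, 4 days) and siEtv4/5 set 1 with the same TGF-β treatment. All 4 groups express the active H-Ras. The lists hold 88442 regions in all.

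Set 2 had 14925 regions, so the siControl list was ranked by -log10 q-value and its first 14925 regions were kept, which gave 29850 regions to compare. Regions that overlapped by 1 bp or more were called shared, and the others were called siControl-only or set 2-only. With 1 list a side there was no replicate error to set the differences against, and no test was run. Each share is given with a Wilson interval (95%), which takes in only the counting error. FAIRE reads a whole culture, so fewer cells with an open region and a less open region in each cell cannot be told apart.

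Etv4 and Etv5 are ETS-family transcription factors of the PEA3 subgroup, which bind DNA at a GGAA core and are induced by Ras-ERK signalling. ETS sites often lie next to sites of AP-1, the Fos and Jun dimers that also answer to Ras-ERK signalling and that hold many enhancers of epithelial cells open. TGF-β acts through Smad proteins and drives epithelial-mesenchymal transition, in which cells give up E-cadherin junctions and make fibronectin and other matrix proteins.

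The label of set 2 gives the sequence of its custom-made siRNA, shown here because it identifies the targeted transcript.

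siRNA strand: uuaaauuccaugccucggccagucc

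All 25 bases were the reverse complement of the Etv5 transcript and lay in the coding part of exon 11 at chr16:22392674-22392698 (mm10; Etv5 is on the minus strand). The sequence of the Etv4 siRNA of set 2 is not printed here. FAIRE does not measure mRNA or protein, so the knock-down could not be checked in these lists. The Etv4 promoter remained a shared region, (chr11:101785224-101785550) with 28 fragments at its summit in untreated cells and 46, 35 and 27 under TGF-β in siControl, set 1 and set 2. The Etv5 promoter (chr16:22439616-22440032) had 29, 37, 34 and 31 fragments in the same order. Both promoters were therefore called in all 4 libraries, and both were highest in siControl with TGF-β.

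Depth as worked out from the lists was 15.3 M reads in untreated cells and 16.3 M, 17.3 M and 20.7 M under TGF-β in siControl, set 1 and set 2. Promoter regions of Krt8 (a keratin of simple epithelia) and of Elf3 (an epithelial ETS factor) were called in all 4 libraries, and that of Krt18, its keratin partner, in all but set 2. Those of Epcam, an epithelial adhesion protein, and Cldn3, a tight junction protein, were called in untreated cells alone, at fold enrichments of 4.67 and 4.71. Of the mesenchymal genes, Fn1 (fibronectin) had a promoter region in all 4 libraries and Vim (vimentin) in the 3 libraries with TGF-β. Cdh2, Zeb1 and Twist1 had none. Defining genes of blood, endothelium, nerve and muscle had no promoter region in any library, with the exception of Pecam1 in TGF-β-treated siControl, at a fold enrichment of 6.75.

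About 1 region in 3 differed between the 2 lists of equal length. Of the siControl regions, 4988 were siControl-only, which is 33.4% (32.7% to 34.2%) of the list. Of the set 2 regions, 4927 were set 2-only, which is 33.0% (32.3% to 33.8%). The other 9937 siControl regions and 9998 set 2 regions were shared. The sides were not alike in what they lacked. The set 2 list was used whole, so a siControl-only region had no set 2 call at any rank. Of the set 2-only regions, 3395 (68.9%) were called in siControl but below the rank limit, and 1532 (31.1%) were absent from the whole siControl list. The limit fell at a -log10 q of 14.69, where 23 siControl peaks were tied and 7 of them were kept. The last region inside had 20 summit fragments and a fold enrichment of 9.22. The set 2 list went down to a -log10 q of 4.52.

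The 3395 regions of lower rank stood higher in set 2 mostly by their place in the list, since their signal was seldom stronger there. Their median fold enrichment, the summit signal over the local background with 1 added to each, was 6.73 in set 2 and 7.40 in siControl. It was higher in set 2 at 1038 of them (30.6%), and at 1 region by 2-fold or more. Their median summit count was 20 fragments in either library. After division by depth, 360 (10.6%) were higher in set 2. Set 2-only is therefore a statement about rank for these regions, and about a missing call for the 1532 others.

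One-sided regions were the weaker ones in both lists. The median fold enrichment was 9.58 for siControl-only regions and 10.2 for the siControl peaks of shared regions, with 26 and 31 fragments at the summit. In set 2 it was 6.80 for set 2-only and 7.38 for shared regions, with 20 and 23 fragments. Regions absent from siControl had a median of 19 fragments and a width of 138 bp, against 193 bp for shared set 2 peaks. The one-sided share fell as the summit count rose, up to the highest class of set 2. In siControl it was 58.4% at 20 to 24 fragments, 39.4% at 25 to 29, 21.1% at 30 to 39 and 5.59% at 40 and over. In set 2 it was 50.2% under 20 fragments and 33.8%, 17.5%, 7.91% and 9.40% in those same classes. Most one-sided regions thus lay toward the lower end of their list. How many would recur in a second culture was not tested.

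At the shared regions of the lists of equal length, set 2 was nearly always the lower. Over 9933 merged shared regions the median log2 ratio of fold enrichment, set 2 to siControl, was -0.46 (quartiles -0.64 to -0.29), which is a ratio of 0.726. It was below 0 at 9557 regions (96.2%). With summit fragments divided by depth in place of fold enrichment the median was -0.77. Promoters (-0.45) and distal regions (-0.47) had like medians. By this measure 3 regions (0.0302%) lay 2-fold or more below the median ratio and 2 (0.0201%) 2-fold or more above it. By 0.5 or more on the log2 scale, 342 regions lay below the median and 276 above it. A region with a large enough loss has no set 2 call and is siControl-only, so these counts are limited by the calling itself. They are also limited by the rank limit, which a siControl peak had to pass and a set 2 peak did not. At the 3395 regions that siControl called below that limit, the median log2 ratio was -0.12. Set 2 was the higher at 30.6% of them. The 7 regions of the mitochondrial chromosome had a median log2 ratio of 0.00 by fold enrichment and of -0.44 by summit fragments over depth. The highest count there was 266 fragments in siControl and 250 in set 2, where the smallest peak widths were 133 and 125 bp. Counts that follow the peak width in this way may stand at a ceiling, so these ratios are no reference for an unchanged signal.

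**Figure D1:**
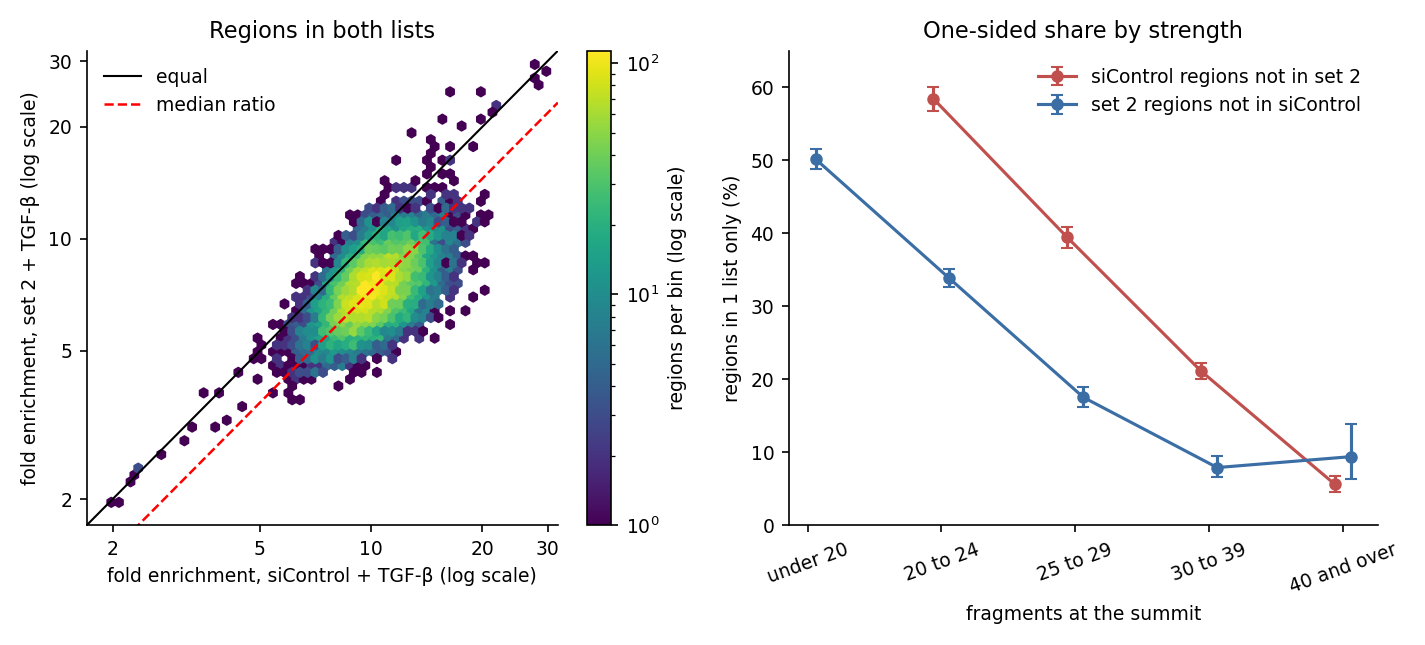
Left, fold enrichment of the 9933 shared regions in siControl (x axis) and set 2 (y axis), both with TGF-β and on log scales, with colour for the number of regions; the black line marks equality and the dashed red line the median ratio of 0.726, and most regions lie below equality. Right, percent of each list that was one-sided by fragments at the summit, with 95% Wilson intervals; both curves fall from over 50% in the weakest class to under 10% at 40 fragments and over.

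The shared regions farthest below the median were a distal region 31.4 kb from Tbx21 (chr11:97083835-97084092), a T-box factor gene, with 42 fragments in siControl and 15 in set 2 (log2 ratio -1.48), a region 94 kb from Trim52, with 45 and 16 (-1.47), and an intron of Ccnf (chr17:24244131-24244388), which encodes cyclin F, with 51 and 19 fragments. The Zmynd19 promoter had 45 and 16 fragments and the promoter of Sdhc, a subunit of succinate dehydrogenase, 39 and 15. In set 1 these 5 regions had 30, 33, 35, 28 and 24 fragments. In the other direction, an intron of Kctd16 on chromosome 18 had 46 fragments in siControl and 79 in set 2 (log2 ratio 0.62). Regions near Gm8797 and Satl1 had 27 and 51 and 30 and 50 fragments, and one 35.7 kb from Sox4, a factor gene induced by TGF-β, had 30 and 43. Set 1 had 67, 34, 47 and 38 fragments at these 4. These regions were picked as the extremes of the shared regions, so their ratios, and the place of set 1 between the values that chose them, are a description.

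The 10 siControl-only regions with the highest -log10 q had 38 to 126 fragments in siControl. The first lay in an intron of Sfi1 (chr11:3181186-3181471), which encodes a centrin-binding protein, with 126 fragments in siControl and 74 with set 1, on a local background of 23.8 fragments. That background was 20.6 times the genome-wide floor, so its fold enrichment was 5.11. At the promoter of Kif3b (chr2:153291252-153291474), a kinesin motor subunit, there were 35 fragments in untreated cells, 44 in siControl and 27 with set 1, at a siControl fold enrichment of 17.3. The intron of Rassf5, a Ras-binding protein, had 22, 47 and 22 fragments in the same order. The promoters of Fkbpl and Eif4g2, a translation initiation factor, had 34, 53 and 29 and 22, 46 and 24. The remaining regions lay at the Ddt promoter, 1.2 kb from Synj2, 25.6 kb from Ptpre, 36.8 kb from Lep and in an intron of Edem3. Set 1 had a call at 9 of the 10, at 0.43 to 0.82 of the siControl fragment count, and untreated cells at 8. These regions were picked for a high siControl value, so lower counts in other libraries are favoured by the choice.

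The 10 set 2-only regions with the highest -log10 q had 30 to 51 fragments in set 2. A region 110 kb from Cartpt, a neuropeptide gene, had 19 fragments in untreated cells, 13 in siControl, 29 with set 1 and 51 with set 2, and stood at rank 27852 in siControl. A pair of regions 39.2 kb and 39.6 kb from P4ha2, a collagen prolyl hydroxylase, shared 1 locus and had 27 and 21 fragments in siControl, 37 and 39 with set 1 and 51 and 44 with set 2. A region in an intron 97.3 kb from St3gal4, a sialyltransferase gene, had 21 fragments in untreated cells, no siControl call, 35 with set 1 and 50 with set 2. The promoters of Ropn1l and of Rpl30, a ribosomal protein, had 23 and 27 fragments in siControl, 32 and 46 with set 1 and 37 and 40 with set 2. Aim2, a sensor of cytosolic DNA, had a region 1.2 kb from its start with 25 fragments in untreated cells, 21 with set 1, 30 with set 2 and no siControl call. Set 1 had a call at all of the 10 but the region near Gm10181. A low siControl value was part of the choice of these regions, so higher counts in other libraries are favoured too.

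**Figure D2:**
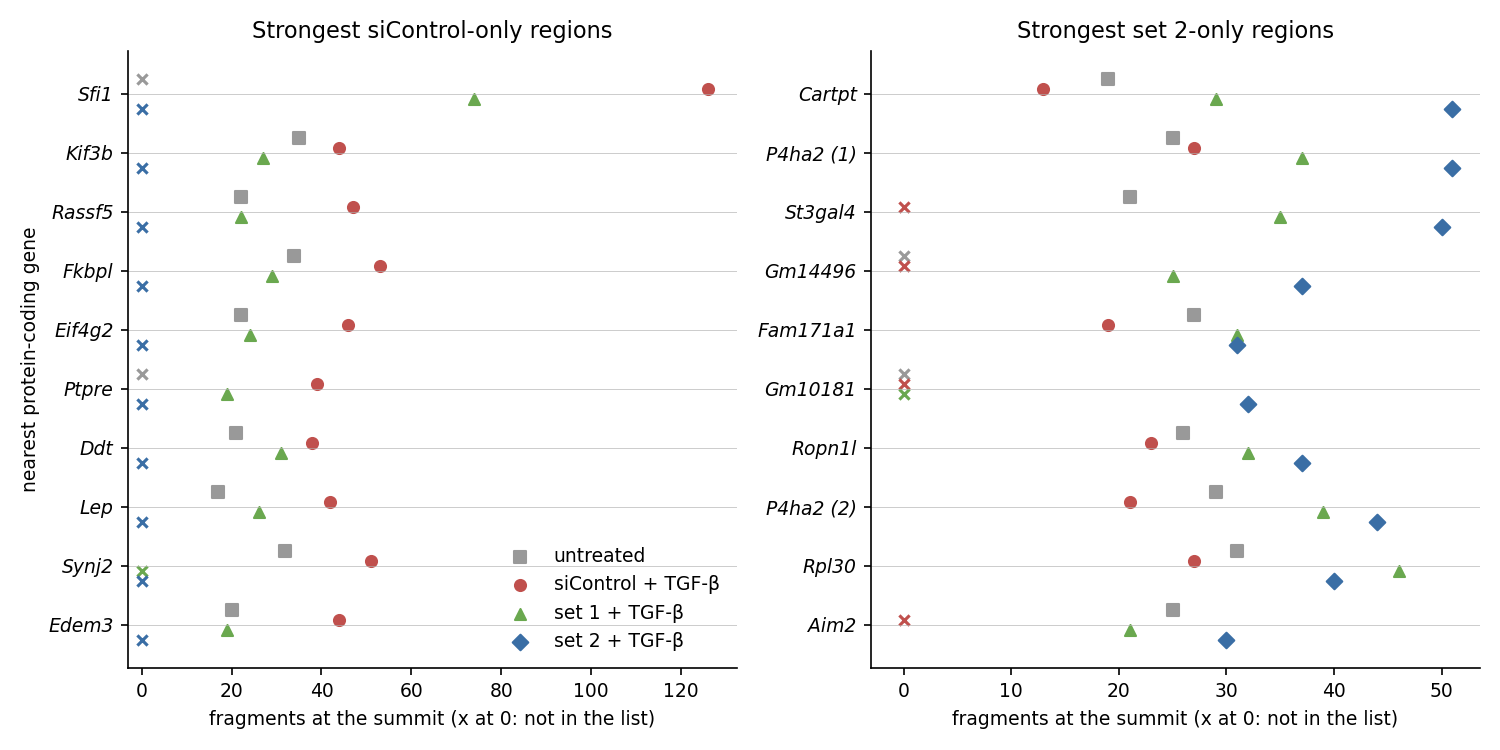
Fragments at the summit in the 4 libraries for the 10 siControl-only (left) and 10 set 2-only regions (right) with the highest -log10 q, named by the nearest protein-coding gene; a cross at 0 marks a region that is not in that library's list. On the left siControl is highest in every row, which the choice of regions by their siControl rank favours against every other library, and set 1 was called in 9 of 10. On the right set 1 lies above siControl in the 6 rows with a siControl call, which the choice of regions favours too.

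Several of these set 2-only regions lay in repeats. The share of their bases in annotated repeats was 74.8% near Cartpt, where TG was repeated 19 times in a row, 72.2% and 30.5% in the pair near P4ha2 and 68.6% near Fam171a1. Of the regions absent from siControl, the one near Gm11168 was 89.9% repeat. In the 10 siControl-only regions the share ran from 0% to 34.2%. Over all distal regions, 3.63% of those absent from siControl were made up of repeats by 50% or more, against 2.28% of all set 2-only, 1.8% of siControl-only and 1.23% of shared regions. Reads in repeats are hard to place, and the part of mapping in these values was not tested.

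The sequences of 5 of these distal regions are shown as examples, 200 bp around the summit, on the plus strand of mm10 (GRCm38). Capitals mark matches to the searched AP-1 (TGANTCA), RUNX (TGTGGTT) and C/EBP (TTGCNNAA) letters on either strand. The first is siControl-only, in the Rassf5 intron, chr1:131184374-131184573, and has an AP-1 match 15 bases from the summit. The second is siControl-only, in the Edem3 intron, chr1:151766934-151767133, with an AP-1 match and a RUNX match. The third is set 2-only and absent from siControl, near St3gal4, chr9:35019505-35019704, with a pair of C/EBP matches here and AP-1 and RUNX matches farther out in the 500 bp used for the motif shares. The fourth is set 2-only, near Cartpt, chr13:99790905-99791104, and shows the TG repeat and no match. The fifth is set 2-only, near P4ha2, chr11:54140035-54140234, with a RUNX match. The last 2 were chosen after their values were seen.
Rassf5 intron: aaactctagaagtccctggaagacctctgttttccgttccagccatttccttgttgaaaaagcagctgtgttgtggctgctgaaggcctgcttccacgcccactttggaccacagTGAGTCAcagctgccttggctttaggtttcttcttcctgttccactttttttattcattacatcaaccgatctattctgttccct
Edem3 intron: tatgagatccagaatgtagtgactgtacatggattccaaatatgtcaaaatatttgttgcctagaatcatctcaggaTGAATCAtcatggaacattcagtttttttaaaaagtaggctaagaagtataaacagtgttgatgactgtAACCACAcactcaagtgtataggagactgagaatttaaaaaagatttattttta
St3gal4 distal: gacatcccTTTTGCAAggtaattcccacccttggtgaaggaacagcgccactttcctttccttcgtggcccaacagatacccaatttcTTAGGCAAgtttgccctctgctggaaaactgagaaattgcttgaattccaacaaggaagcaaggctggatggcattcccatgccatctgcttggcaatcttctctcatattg
Cartpt distal: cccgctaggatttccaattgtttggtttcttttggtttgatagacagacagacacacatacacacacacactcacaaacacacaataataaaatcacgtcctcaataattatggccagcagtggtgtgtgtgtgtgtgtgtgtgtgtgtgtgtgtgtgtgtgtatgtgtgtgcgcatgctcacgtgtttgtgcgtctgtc
P4ha2 distal: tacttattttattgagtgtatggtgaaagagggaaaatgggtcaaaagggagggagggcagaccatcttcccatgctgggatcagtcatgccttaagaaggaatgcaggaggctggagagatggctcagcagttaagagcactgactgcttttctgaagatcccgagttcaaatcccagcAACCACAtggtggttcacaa

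One-sided regions of both lists lay at promoters less often than shared regions. With a promoter taken as 2 kb around an annotated transcription start site, promoters made up 33.1% (31.8% to 34.4%) of siControl-only, 32.2% (30.9% to 33.5%) of set 2-only and 47.0% (46.0% to 48.0%) of shared siControl regions. Introns held 34.9%, 33.4% and 27.2%, and intergenic DNA 30.0%, 32.2% and 24.1%. The difference was also present among regions of like strength. At 25 to 29 fragments, promoters were 34.6% of siControl-only and 43.8% of shared siControl regions, and 39.7% of set 2-only and 52.9% of shared set 2 regions. Among promoters, 61.9% of siControl-only, 58.6% of set 2-only and 76.2% of shared siControl regions were rich in CpG, with an observed to expected ratio of 0.6 or more. Shared regions were thus more often CpG-rich promoters, the kind from which widely used genes start, and one-sided regions were more often intronic or intergenic.

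AP-1 sites were less frequent in one-sided than in shared distal regions. Searched in 500 bp around the middle of distal regions, AP-1 (TGANTCA) was present in 58.2% (56.5% to 59.9%) of siControl-only, 51.6% (49.9% to 53.3%) of set 2-only and 68.8% (67.6% to 70.1%) of shared siControl regions, beside 64.7% of all distal siControl regions. The set 2-only value joined unlike groups, namely 58.7% of the regions at lower rank in siControl and 36.1% (33.2% to 39%) of those absent from it. At 20 to 24 fragments AP-1 was in 51.3% of set 2-only and 69.0% of shared set 2 regions, so the gap was also present at like strength. Among siControl regions of that strength it was 50.7% against 55.3%, with intervals that overlapped. At 25 to 29 fragments it was 62.5% (59.7% to 65.2%) of siControl-only against 68.4% (66.1% to 70.7%) of shared siControl regions, and at 30 to 39 fragments 65.4% against 72.7%, with intervals that did not overlap.

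ETS sites (CNGGAAGT) were no more frequent among the regions that set 2 lacked. They were in 9.34% (8.40% to 10.4%) of siControl-only, 11.8% (10.8% to 13%) of set 2-only and 12.7% (11.8% to 13.6%) of shared siControl regions, beside 11.4% of all distal siControl regions. The siControl-only share was the lowest also at 20 to 24 fragments, with 7.23% against 10.8% of shared siControl regions, and intervals that did not overlap. At 25 to 29 fragments the siControl-only share was 10.99% against 11.78%, and at 30 to 39 fragments 10.66% against 13.96%. At 40 fragments and over it was 10.17% of 59 regions against 12.98%. The intervals overlapped in each of these higher classes. AP-1 and ETS matches together were in 5.39% of siControl-only, 6.05% of set 2-only and 8.85% of shared siControl regions. In promoters ETS was in 15.6%, 18.2% and 21.0%. A match is a string of letters and does not show binding, and a distal region without one may still be bound.

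RUNX (TGTGGTT) was in 15.1% of siControl-only, 16.6% of set 2-only and 18.7% of shared siControl regions, and TEAD (GGAATGT) in 10.5%, 13.2% and 13.39%. CTCF, the factor of insulators and loop anchors, went the other way with 6.11%, 7.10% and 3.55%, and reached 11.7% (9.93% to 13.8%) in the regions absent from siControl. CTCF matches were frequent in weak regions of either list. At 20 to 24 fragments they were in 10.5% of siControl-only and 9.29% of shared siControl regions, while under 20 fragments in set 2 they were in 8.09% of set 2-only and 4.61% of shared regions. The ZEB/SNAI E-box (CACCTG), C/EBP and SP/KLF (GGGCGG) differed little, with the E-box at 29.9%, 31.7% and 30.0%. GRHL (AACCNGTT), an epithelial motif, was in 3.80%, 4.73% and 3.59% (3.12% to 4.13%). It was in 5.53% (4.31% to 7.09%) of the regions absent from siControl. That interval overlapped those of siControl-only (3.21% to 4.51%) and of all set 2-only regions (4.06% to 5.51%).

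**Figure D3:**
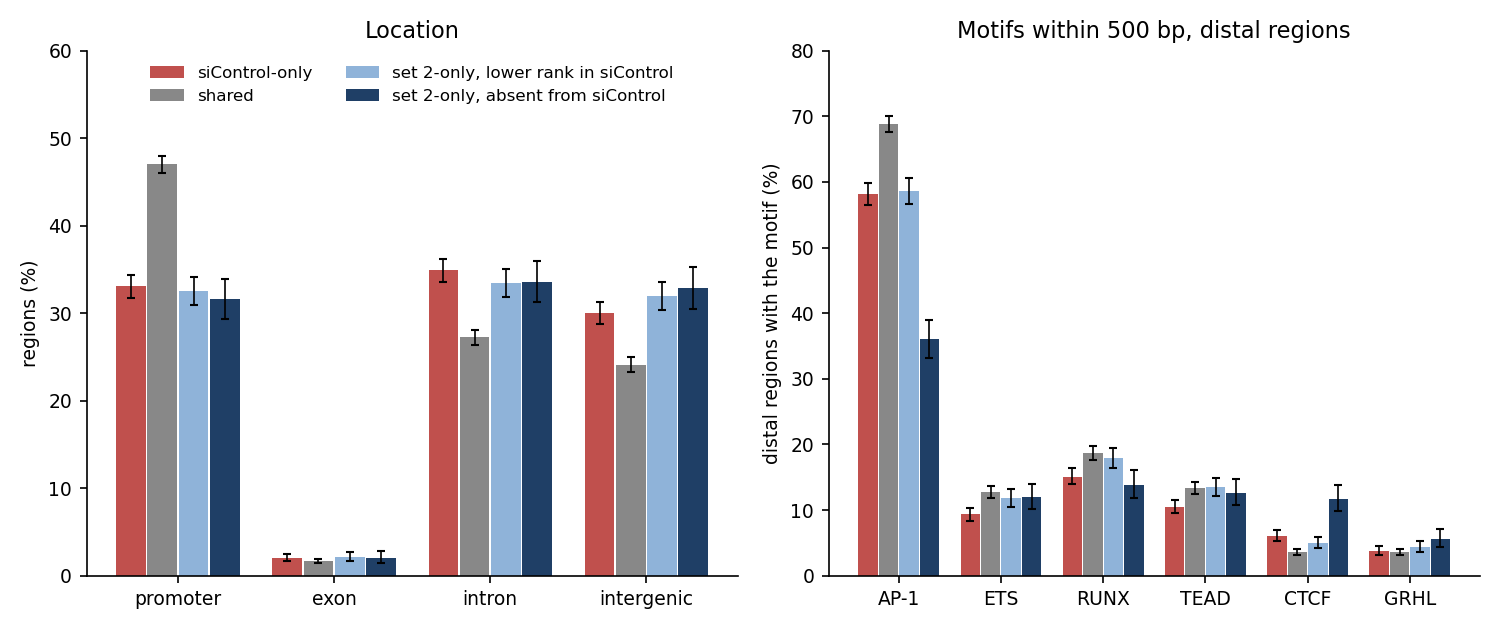
Left, percent of siControl-only, shared (siControl peaks) and set 2-only regions in promoters, exons, introns and intergenic DNA, with set 2-only split into regions of lower rank in siControl and regions absent from it. Right, percent of distal regions of each class with each motif in 500 bp; error bars are 95% Wilson intervals, and the regions absent from siControl have the lowest AP-1 and the highest CTCF share.

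The untreated and set 1 libraries had no part in the choice of regions. Set 1 had a call at 64.9% of siControl-only and 64.5% of set 2-only regions, against 94.3% of shared siControl regions. Untreated cells had one at 61.8%, 58.7% and 91.7%. Neither library had a call at 18.6% of siControl-only, 20.9% of set 2-only and 1.67% of shared siControl regions. Of the regions absent from siControl, 38.9% were called with set 1 and 38.3% in untreated cells, and 42.0% in set 2 alone. The siControl-only regions lay in higher fragment classes than the set 2-only ones, and at like counts the set 1 shares differed. At 20 to 24 fragments set 1 had a call at 54.5% (52.3% to 56.7%) of siControl-only and 67.1% (65.0% to 69.2%) of set 2-only regions, and at 25 to 29 fragments at 66.9% and 77.7%. The set 2-only values joined unlike groups. In these classes set 1 had a call at 77.5% and 87.0% of the regions at lower rank in siControl. It had one at 41.9% and 40.2% of those absent from siControl, which is below the siControl-only shares. The siControl-only regions had no call in the other list either, but the 2 absences are unlike. The set 2 list held 14925 regions and the whole siControl list 28754, so absence from siControl is the stricter criterion. Fragment counts come from libraries of unlike depth, so like counts are not like fold enrichments. With the lists of set 1 and untreated cells cut to the same length as well, the set 1 shares were 41.4% of siControl-only, 39% of set 2-only and 82.3% of shared siControl regions.

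The one-sided regions were not spread evenly over the chromosomes. On chromosome 14, 28.9% of siControl regions and 53.5% of set 2 regions were one-sided, and set 2 had 411 regions there against 266, which is 54.5% more. On chromosome 12 the shares were 28.4% and 43.2%, and on chromosome X 48.2% and 65.5%, from 56 and 87 regions. Chromosomes 13 (44.0% and 35.3%) and 4 (37.2% and 28.4%) leaned to siControl.

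The local background that the peak caller used moved with these shares on the autosomes. At shared regions its median log2 difference, set 2 minus siControl, was 0.06 on chromosome 14 and -0.03 on chromosome 12, and -0.27 on chromosome 13 and -0.32 on chromosome 4, beside -0.17 over all. Across the 19 autosomes this difference went with the set 2-only minus the siControl-only share at r = 0.93 (Spearman 0.91), where the points share both libraries. Chromosome X stood apart. Its difference of -0.10 was that of chromosome 9, where 32.8% of siControl and 37.4% of set 2 regions were one-sided. The fold enrichment, which is already taken over this background, changed by a like amount on every chromosome, by -0.42 to -0.51. Summit fragments over depth changed unevenly, from -0.57 on chromosome 14 to -0.89 on chromosome 4. The part of the background in the one-sided shares was not tested. The background of set 1 shifted from siControl in the same way. At regions called in all 4 libraries its median log2 difference was -0.18 on chromosome 4, -0.16 on chromosome 13 and 0.00 on chromosomes 12 and 14. Over the 19 autosomes the set 1 and set 2 differences went together at r = 0.97, where both are taken from the same siControl list. With lists of equal length within each chromosome, 4981 siControl-only and 4918 set 2-only regions were found, of which 4657 and 4712 were among the regions described here.

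**Figure D4:**
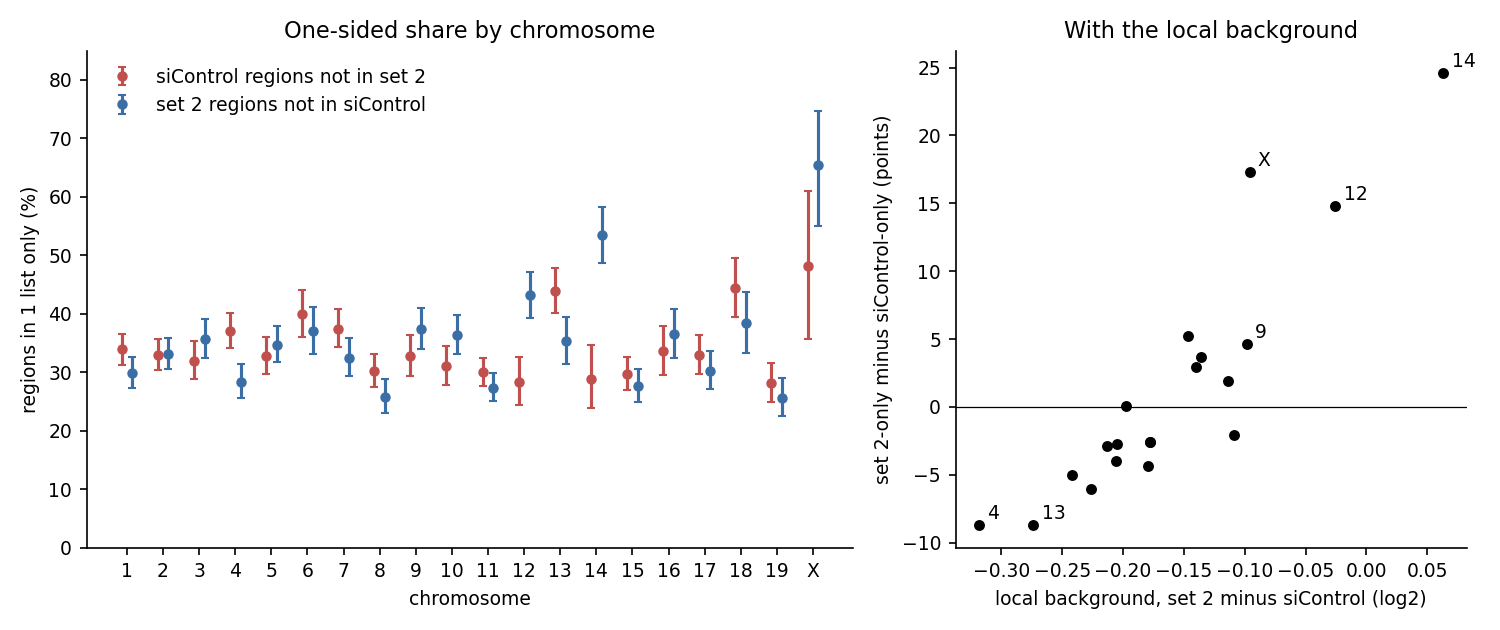
Left, percent of siControl regions (red) and set 2 regions (blue) that were one-sided on each chromosome, with 95% Wilson intervals; chromosomes 12, 14 and X have more set 2-only regions. Right, for each chromosome the median log2 difference of local background, set 2 minus siControl, at shared regions (x axis) and the set 2-only minus the siControl-only percent in points (y axis); both are highest on chromosome 14 and lowest on chromosomes 4 and 13.

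Each region was given to the protein-coding gene with the nearest start site. Shared regions were counted by their siControl peaks. Of 10332 genes with any region, 3890 (37.7%) were nearest to 1 or more siControl-only regions and 3739 (36.2%) to 1 or more set 2-only regions. Both kinds were found at 1262 genes, siControl-only without set 2-only at 2628 and the reverse at 2477. Many genes rich in regions had some of each. Myc, the growth-promoting factor gene that sits in a large gene desert, had 22 shared, 6 siControl-only and 6 set 2-only regions. Nfib, a nuclear factor I gene, had 6 and 2 one-sided regions, and Lpp, a focal adhesion protein, 6 and 1. Lingo2 on chromosome 4 and Diras2, a Ras-like GTPase gene on chromosome 13, had 6 siControl-only and 0 set 2-only regions each, on the chromosomes that leaned to siControl. The most set 2-only regions lay at Ubash3b, a phosphatase-like regulator of receptor signalling, with 11 against 1. Runx1 had 8 against 3, Ets1 7 against 1, Tbl1xr1, a co-repressor subunit, 7 against 0 and Has2, which makes hyaluronan, 7 against 3.

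Gene lists were read against the number of one-sided regions that a list would have if each of its regions had the share of its chromosome and kind (promoter or distal). Over the 10332 genes, 33.4% of the 14925 siControl regions and 33.2% of 14855 set 2 regions were one-sided. The other set 2 regions lay nearest to genes that had no region but shared set 2 peaks, which were not counted. The median over genes of siControl-only minus set 2-only regions was 0 over all genes, -1 for ETS factors and Ras-ERK genes, 1 for matrix glycoproteins, hypoxia and glycolysis and other cell types, and 0 for the other lists. Lists overlap in a few genes, and regions of 1 gene share a locus. Summit fragments of named genes are not divided by depth, which was 1.27 times as high in set 2 as in siControl. A somewhat higher count in set 2 is thus not by itself a stronger signal.

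ETS factor genes had 10 siControl-only regions (10.5 at the chromosome share) and 22 set 2-only regions (15.9). Among the 16 ETS genes with a region, 2 had one-sided regions from siControl alone and 6 from set 2 alone, where all 10332 genes had 2628 and 2477. Ets1, itself an effector of Ras-ERK signalling, made up 7 of the 22. Its promoter had 23 fragments in untreated cells, 26 in siControl, 30 with set 1 and 27 with set 2. The 4 Ets1 regions that siControl also called had 19 to 30 fragments there and 27 to 35 in set 2, before division by depth. The other 3 were absent from siControl. Etv1, the third PEA3 factor gene, lies on chromosome 12 and had 3 set 2-only regions. Its promoter was called in set 2 alone, with 26 fragments. Etv6, a repressor of the family, had 3 siControl-only regions in introns with 24 to 26 fragments and 1 set 2-only region. Elf2 had 2 siControl-only regions. Etv4 had 4 shared regions and no one-sided region, and Etv5 had 1 set 2-only region 1.8 kb from its start, with 26 fragments in untreated cells, 20 with set 1 and 17 with set 2.

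Genes of the Ras-ERK pathway and its feedback had 18 siControl-only regions (28.4 at the chromosome share) and 35 set 2-only regions (34.0). The set 2-only count was near its share. The 26 genes with a region held 84 siControl and 101 set 2 regions, of which 21.4% and 34.7% were one-sided. Dusp4, a phosphatase that turns ERK off, had 4 set 2-only regions, with 15, 17 and 27 fragments in siControl and 24, 25 and 25 in set 2 at the 3 that siControl also called. Phlda1 had 4, with fewer fragments in set 2 than in siControl at each of the 3 that siControl called, among them 26 and 20 at 10.7 kb. The promoter of Erbb2, a receptor of the EGF family, had 18 in siControl and 19 in set 2. On the other side stood Ier2, an immediate-early gene with 3 siControl-only regions, among them its promoter with 33 fragments and no call elsewhere, and Ccnd1 (cyclin D1) with 2. Its promoter had 27 fragments in untreated cells, 30 in siControl and 30 with set 1. Map2k2, the MEK2 kinase that activates ERK, had a siControl-only promoter with 25 fragments, and 31 with set 1.

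Hypoxia and glycolysis genes leaned to siControl, with 19 siControl-only regions (12.6 at the chromosome share) and 10 set 2-only (10.7). Of 15 genes with a region, 8 had one-sided regions from siControl alone and 1 from set 2 alone, where all 10332 genes had 2628 and 2477. Aldoa, a glycolytic aldolase, had 3 siControl-only regions at its promoters with 26, 27 and 21 fragments. The first of these had 19 in untreated cells and no call with set 1. The promoter of Ldha, lactate dehydrogenase A, had 28 in siControl and 18 with set 1. The promoter of Pfkp, a phosphofructokinase, had 28 in untreated cells and 26 in siControl, with no call in either siRNA set. Hif1a, the hypoxia-induced factor gene on chromosome 12, went the other way with 3 set 2-only regions, all absent from siControl. p53 and apoptosis genes had 19 siControl-only (13.9) and 13 set 2-only regions (11.5). Bcl2l1, an inhibitor of apoptosis, held 4 of the 19, among them its promoter with 30 fragments, and Mdm2, the ubiquitin ligase of p53, held 2. Mcl1, of the same family as Bcl2l1, had 2 set 2-only regions.

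Matrix glycoprotein and collagen genes had 41 siControl-only (39) and 25 set 2-only regions (31.3). More of the former than the latter were found at 16 of the 29 genes with a region and the reverse at 6, where all 10332 genes had 2892 and 2767. Col12a1 had 4 siControl-only regions with 23 to 28 fragments. Lamc1, a laminin chain, had 3, with 34 fragments at the promoter in siControl, 35 in untreated cells and 28 with set 1. Fn1 had a shared promoter with 30 fragments in untreated cells, 33 in siControl, 24 with set 1 and 24 with set 2. Its 3 siControl-only regions lay 198 kb, 227 kb and 271 kb upstream with 26, 23 and 32 fragments, and its set 2-only region 259 kb upstream with 22. Col18a1 had 3 set 2-only regions and no siControl-only region. Protease and inhibitor genes had 17 (13.7) and 16 (14.5). Mmp13, a collagenase, had 1 region, 13.8 kb upstream (chr9:7258571-7258785), which was set 2-only by rank with 25 fragments in untreated cells, 28 in siControl, 26 with set 1 and 24 with set 2. Its count was thus lower in set 2 than in siControl although it is on the set 2 side.

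Genes of epithelial identity had 12 siControl-only (13.3) and 23 set 2-only regions (18.3). Trp63, the p63 factor of basal epithelium, had 4 set 2-only regions with 20 to 24 fragments in siControl and 21 to 25 in set 2. Of siControl-only and set 2-only regions, Krt8 had 1 and 4, Cebpb, a C/EBP factor gene, 1 and 4, and Grhl2, a grainyhead factor gene, 1 and 0. Cdh1, encoding E-cadherin, had a promoter region (chr8:106603170-106603327) of 21 fragments in untreated cells and 21 in set 2 with no call in siControl or set 1. An intron of Cdh1 (chr8:106619663-106619931) was siControl-only, with 27 fragments in untreated cells, 33 in siControl and 22 with set 1. Esrp2, an epithelial splicing factor, had a siControl-only region 1.3 kb from its start with 29 fragments in untreated cells and 29 in siControl. The single Cdh1 gene thus held a region on each side. Cell junction genes had 20 (18.1) and 16 (16.7), with Pkp1, a desmosome protein, at 4 and 1. Gapdh, a common reference gene, had a shared promoter region with 25 fragments in both lists and a siControl-only region at its start with 29.

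Factors of epithelial-mesenchymal transition had 16 (18.3) and 18 (18). Sox4 had 4 siControl-only regions, among them its promoter with 27 fragments in untreated cells, 30 in siControl and 22 with set 1, and 1 set 2-only region. Snai1 had 4 set 2-only regions, and the 3 called in siControl had 23, 26 and 23 fragments there against 18, 24 and 20. Twist1 had 2 distal siControl-only regions with 28 and 22 fragments. TGF-β and Smad pathway genes had 24 (26.6) and 33 (30.1), with Tgfb3 at 0 and 4, Smad3, a receptor-activated Smad, at 1 and 4, and Smad1, which carries BMP signals, at 2 and 0. RUNX and TEAD factors and targets had 15 (16.2) and 24 (21.0). Runx1, a factor whose motif is frequent in these regions, had a siControl-only promoter region (chr16:92697308-92697482) with 36 fragments in siControl, 35 in untreated cells and 31 with set 1, while 7 of its 8 set 2-only regions were called in siControl too. Ccn2, a matrix-associated target of YAP and TGF-β, had 5 set 2-only regions and its promoter had 17 fragments in untreated cells, 21 in siControl, 31 with set 1 and 25 with set 2.

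Integrin and focal adhesion genes had 18 siControl-only (22.1) and 29 set 2-only regions (26.6), with Itgav at 0 and 3 and Itgb5 at 2 and 0. Growth factor and cytokine genes had 13 (16.2) and 18 (19.3) and cell cycle genes 7 (10.4) and 13 (11). Of the last, 6 lay near Cdkn2b, an inhibitor of cyclin-dependent kinases, where siControl had 23 to 30 fragments at the 5 it called and set 2 had 21 to 25. AP-1 subunit genes had 7 (6.44) and 8 (7.59). Interferon and double-stranded RNA response genes had 9 (9.69) and 7 (8.62), and Socs3, a brake on cytokine signalling, had 3 siControl-only regions with 45, 32 and 37 fragments, all called with set 1 at 28, 33 and 29. Lipid and sterol genes had 4 (10.1) and 5 (9.41). Genes of other cell types had 4 (2.73) and 0 (1.08), each a single region near Kdr, Des, Cdh5 or another gene of the list.

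**Figure D5:**
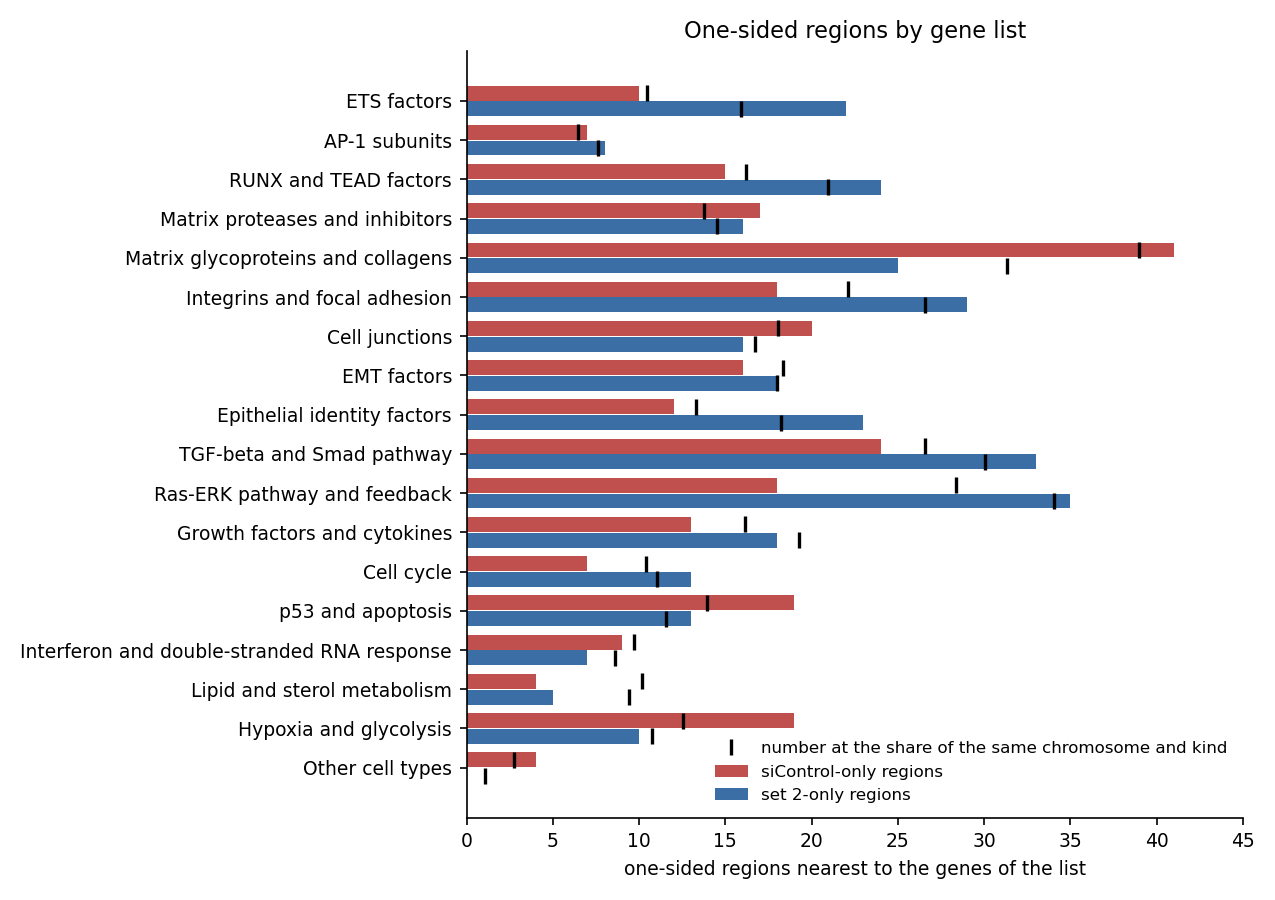
Number of siControl-only (red) and set 2-only (blue) regions nearest to the genes of each of 18 lists, with a black tick for the number at the share of the same chromosome and kind of region. Ras-ERK genes have 18 siControl-only regions where the tick is at 28.4, and hypoxia and glycolysis genes have 19 where it is at 12.6; no list has a replicate or a test.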

How the data were processed

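FAIRE-seq was done by the authors in 4 groups of EpRas cells. Reads from an Ion Proton were mapped to mm10 with Bowtie and peaks were called with MACS2 (2.1.0 per the submitters' processing notes) at a q-value below 0.0001. The study describes biological replicates, which may have been pooled, since each group has 1 deposited list. The deposited values are a fold enrichment of the summit (a ratio that the authors' caller takes to the local background), its p-value and q-value as -log10, and a whole-number score that was not used. All were deposited as the authors' caller wrote them.

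Summit fragments and local background were solved from the deposited fold enrichment, (fragments + 1)/(background + 1), and the Poisson -log10 p-value, within 0.001 for 100% of regions. Depth was the background floor times 1.87 Gb over the smallest peak width (125 to 134 bp), 15.3 to 20.7 M reads. It limits the precision of each count.

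Lists were ranked by -log10 q and cut to 14925 regions. Regions were annotated with GENCODE vM21 and sequences were read from GRCm38. The tools were Python 3.11.15, NumPy 2.4.6, pandas 2.3.3, SciPy 1.17.1, pysam 0.24.0 and matplotlib 3.10.9. The overlap and solving steps were tested on simulated data. No test across groups was possible with 1 list a group.

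The regions and the gene lists were chosen with earlier results of these data known, and 1 further gene list is not reported here. Named regions and genes were the 10 strongest one-sided regions of each side, the 5 strongest absent from siControl, the 5 genes with the most regions of each side, up to 3 genes a side in each list, and Etv4, Etv5, Mmp13, Cdh1, Cdh2, Fn1, Esrp2, Gapdh and Hbb-bs. Cdh2 and Hbb-bs had no region in either list. The extremes among shared regions were named after their values were seen. Alternatives concerned overlap, ranking, list length, promoter and motif windows and gene assignment. Those that left out chromosomes 12, 14 and X, or equalised lists within each chromosome, were added after the data were seen.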

Additional observations from a re-analysis of the deposited data

How the results depend on the processing

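The counts of one-sided regions depended on list length. With full lists, 15406 siControl-only and 1532 set 2-only regions were found, and with the top 5000 of each list 2461 and 2455. Of these top 5000 one-sided regions, 621 and 809 were among the siControl-only and set 2-only regions described here. Under the other 9 alternatives, which concerned overlap, ranking, list length, q-value and chromosomes, both counts stayed within 1.5 times. With ranking by fold enrichment, 83.6% of the siControl-only and 88.1% of the set 2-only regions were found again as one-sided. The set 2 list is whole under either ranking, so the siControl-only regions not found again had left the cut siControl list. With the top 10000 of each list 47.7% and 52.1% were found again, where the shorter lists also leave out regions. The median log2 ratio at shared regions was negative throughout, at -0.77 by summit fragments over depth, -0.38 with full lists, -0.44 with the top 5000 and -0.47 with ranking by fold enrichment. No paired analysis was possible because each group has 1 list, and no replicate could be left out.

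Shared regions kept the highest promoter share. For siControl-only, shared and set 2-only regions it was 28.3%, 43.9% and 27.2% with a 1 kb window, 28.5%, 42.7% and 26.7% with start sites of protein-coding genes alone and 42.5%, 61.3% and 44.9% with the top 5000. With full lists it was 26.7% for siControl-only and 43.3% for shared regions. AP-1 was in 53.7%, 62.9% and 43.6% in a 200 bp window and in 71.2%, 74.2% and 54.5% with the top 5000. With full lists it was in 65.8% of shared and 36.1% of set 2-only regions. ETS was in 4.85%, 7.05% and 7.01% in 200 bp and in 0.539%, 1.2% and 1.17% with the stricter letters CCGGAAGT. With the top 5000 it was in 11.8%, 13.3% and 12.7%, with intervals that overlapped. With the lists not used for the choice cut to equal length, the shares were 41.4%, 82.3% and 39% in set 1 and 40.9%, 78.0% and 36.9% in untreated cells.

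The sums over gene lists were 163 siControl-only and 164 set 2-only regions when a region had to lie in the gene or 10 kb upstream, and 862 and 91 with full lists. Set 2-only minus siControl-only changed sign with the former for TGF-β and Smad (-2), growth factors (-5) and other cell types (1). With full lists it turned negative for 11 lists, at -25 for ETS factors, -29 for AP-1 subunits, -43 for RUNX and TEAD, -54 for integrins, -52 for epithelial-mesenchymal transition factors, -44 for epithelial identity, -79 for TGF-β and Smad, -63 for Ras-ERK, -52 for growth factors, -25 for cell cycle and -15 for lipid genes, where the longer siControl list sets the direction.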

Other observations

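Of the 1532 set 2 regions absent from the whole siControl list, 888 were also called in set 1 or in untreated cells and 644 in neither. The distal regions of these classes had like motif shares. AP-1 was in 34.1% (30.3% to 38.1%) and 38.4% (34.2% to 42.8%), CTCF in 12.3% and 11.1% and ETS in 11.1% and 12.9%. The 4059 siControl-only regions that were called in another library and the 929 that were not had AP-1 in 58.7% and 56.3% and CTCF in 5.74% and 7.53%. These are counts of letters in windows, with Wilson intervals for counting error, and no class was tested against another.

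All values rest on 1 list a group. The comparison shares its siControl list with any other contrast against siControl. The nearest start site need not be the gene a distal region acts on, and a list's genes often share a locus or a chromosome whose background differed.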
